A study of Oryctolagus cuniculus with 12 samples.

Results

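CD68, CD14, MRC1, MSR1, CD86, MPEG1 and CX3CR1 are 7 genes used to recognise macrophages. All probes that the array's gene name, accession or description assigned to them were taken, which gave 14 of the 43623 non-control probes and 7 of the 10199 genes that could be named. They were measured in the basilar artery of rabbits, the midline artery in front of the brainstem. Total RNA was measured on 12 single-colour arrays: 3 from normal control arteries (day 0) and 3 each from arteries taken 3, 5 and 7 days after experimental subarachnoid hemorrhage, which is bleeding into the fluid space around the brain. The labels give no strain, age or sex, no way in which the bleeding was produced, and no statement that replicates came from separate animals, so p-values measure the spread between these arrays, which may be technical. Each replicate number was 1 slide, and each slide held 1 array of every group at the same position, so that effects of position and of group cannot be told apart.

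Macrophages settle in the outer coat of arteries and in the meninges, and blood monocytes enter injured vessels and become macrophages there. They take up dead cells, lipids and clotted blood through scavenger receptors and mannose-binding receptors, and degrade them in lysosomes. Other surface proteins sense microbial products, present antigen with costimulation, or answer chemokines that hold or draw the cell. After bleeding around the brain, macrophages are known for clearing red cells.

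Expression was read with probes of 60 bases, which are shown because they decide which transcript each value refers to. Chromosomes are those the array lists, on a build not given in the sources used here. The probe for CD68, listed on chromosome 19, is described by the array as CD68-like. The MSR1 probe is listed on chromosome 2 and the CX3CR1 probe on chromosome 9.
CD68: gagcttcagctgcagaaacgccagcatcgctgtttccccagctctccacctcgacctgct
MSR1: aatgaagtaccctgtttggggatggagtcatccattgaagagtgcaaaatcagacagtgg
CX3CR1: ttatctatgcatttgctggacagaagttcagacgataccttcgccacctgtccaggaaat

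The MRC1 probe (chromosome 16, described as mannose receptor C type 1-like) and the CD86 probe (chromosome 14) both end on a stop triplet, given in capitals.
MRC1: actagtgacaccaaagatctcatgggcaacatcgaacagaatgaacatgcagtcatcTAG
CD86: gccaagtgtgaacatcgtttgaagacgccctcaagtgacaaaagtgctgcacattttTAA

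MRC1 had 3 probes that did not overlap one another and lay within 194 bases, so they were separate readings of 1 transcript end. MPEG1 (chromosome 1, described as macrophage expressed gene 1-like) had 5 probes, each shifted by 1 base from the next. The first and last of them share the 56 bases in capitals, so the 5 probes are nearly the same reading repeated.
MPEG1, probe A_04_P075667: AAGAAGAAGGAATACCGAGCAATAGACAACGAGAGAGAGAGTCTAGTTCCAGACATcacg
MPEG1, probe A_04_P075671: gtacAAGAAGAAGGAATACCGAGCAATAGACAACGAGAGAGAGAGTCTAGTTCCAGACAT

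Levels are given on a log2 scale, with the 75th percentile of each array set to 0, so that a difference of 1 is a doubling and a negative level lies below that percentile. Levels of different genes rest on different probes and are not set against each other. Across the 12 arrays the 75th percentile signal lay between 127 and 191, and 58.2 to 64.0% of spots were well above background, except on control replicate 2, where 50.1% were. Arrays of 1 group correlated at 0.964 to 0.987 over the probes. All 13 tested smooth muscle genes, among them ACTA2 and MYH11, were above background on all arrays, as the arterial label implies.

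CD68, CD14, MRC1, MSR1, CD86 and MPEG1 rose on each of the 3 days, and CX3CR1 fell on days 3 and 7. A probe was tested where every array of some group read it well above background, and all 14 probes met this. At a Benjamini-Hochberg adjusted p below 0.05 in limma, over 26431 tested probes, 6 of the 7 genes were higher than control on day 3, against 4.83% of the 7335 named genes tested. Of these 6, MSR1, CD86 and MPEG1 passed the filter only through the days on which they were high, and only CD68, CD14 and MRC1 were above background on all 12 arrays. Passing in this way selects for a difference. The counts, median change, lack of overlap and F test given here thus give no support for MSR1, CD86 or MPEG1. All 7 genes were also chosen with earlier results of these data known. The same 6 were higher on day 5 (background 1.92%) and on day 7 (background 1.96%), while 92 named genes, or 1.25%, were called higher on all 3 days. CX3CR1 was the gene called lower, on day 3 (background 2.02%) and on day 7 (background 0.573%), but not on day 5 (background 0.218%). The median change of the 7 genes was 1.44 on day 3, 1.84 on day 5 and 2.0 on day 7, beside 0.00, 0.02 and 0.03 over all named genes. No array of days 3, 5 or 7 overlapped a control for the 6 genes that rose. Over all named genes, 13.6% lay wholly above the controls on day 3, 10.1% on day 5 and 12.2% on day 7. CX3CR1 lay wholly below them on days 3 and 7, as did 11.3% and 10.9% of named genes. Without control replicate 2, 6 genes were called on day 3, 5 on day 5 and 5 on day 7. An F test over the 3 days called all 7 genes (background 3.26%). Arrays of bulk tissue cannot tell more macrophages apart from more RNA of these genes per cell.

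**Figure D1:**
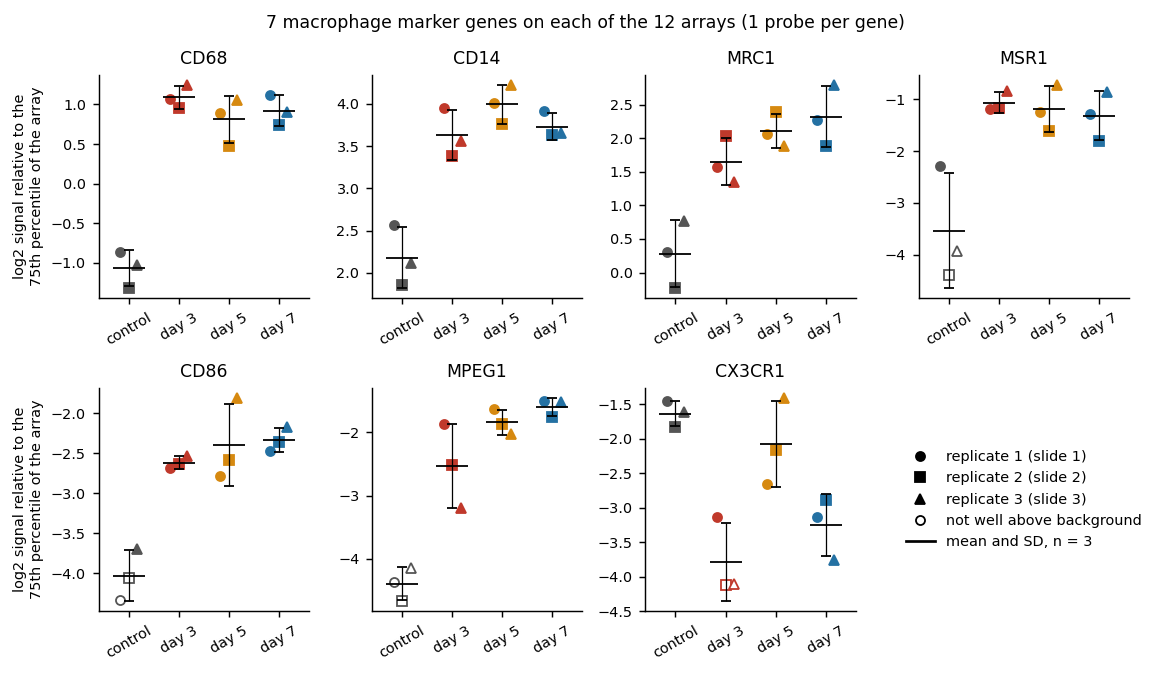
Level on the log2 scale, with the 75th percentile of each array at 0 (vertical axis, a separate range for each gene), for 1 probe of each of the 7 genes in the 4 groups, with 1 mark per array and the mean and SD of 3 arrays. The day arrays of 6 genes lie above all controls, from 0.48 upward for CD68 against -0.87 in its highest control, whereas CX3CR1 lies below all controls on days 3 and 7 and overlaps them on day 5.

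CD68, or macrosialin, is a heavily glycosylated protein of the lysosomal membrane and the most widely used macrophage stain. In the controls CD68 read -0.87, -1.32 and -1.03 in replicates 1 to 3. On day 3 it read 1.07, 0.96 and 1.25, on day 5 it read 0.89, 0.48 and 1.06, and on day 7 it read 1.12, 0.74 and 0.91. Every day array lay above every control, with a gap of at least 1.35 between the lowest day array and the highest control, and the 3 days overlapped one another. CD68 was 4.49-fold higher on day 3 (log2 change 2.17, SE 0.19, adjusted p = 0.000126), 3.69-fold on day 5 (adjusted p = 0.00106) and 3.99-fold on day 7 (adjusted p = 0.000618). The 3 slides gave changes of 1.93, 2.28 and 2.28 on day 3, close to one another.

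CD14 binds bacterial lipopolysaccharide and hands it to the TLR4 and LY96 complex. Its control levels were 2.57, 1.86 and 2.11. They were followed by 3.95, 3.38 and 3.56 on day 3, by 4.01, 3.76 and 4.22 on day 5, and by 3.91, 3.63 and 3.65 on day 7. No day array overlapped a control, and the 9 day arrays overlapped across days. CD14 rose 2.72-fold on day 3 (log2 change 1.44, SE 0.22, adjusted p = 0.00291), 3.51-fold on day 5 (adjusted p = 0.00196) and 2.93-fold on day 7 (adjusted p = 0.00473).

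MRC1, the mannose receptor CD206, internalises mannose-bearing glycoproteins and is typical of resident and tissue-repair macrophages. The brightest MRC1 probe gave 0.31, -0.23 and 0.77 in controls and 1.57, 2.04 and 1.35 on day 3. It gave 2.07, 2.39 and 1.89 on day 5 and 2.28, 1.89 and 2.80 on day 7. Control replicate 3 was the highest control and day 3 replicate 3 the lowest day array, and the slide differences on day 3 spread from 0.57 on slide 3 to 2.27 on slide 2. MRC1 was 2.58-fold higher on day 3 (log2 change 1.37, SE 0.30, adjusted p = 0.0209), 3.57-fold on day 5 (adjusted p = 0.00918) and 4.11-fold on day 7 (adjusted p = 0.00578). The day 3 call was lost without control replicate 1 (adjusted p = 0.0584), control replicate 2 (0.0633) or day 3 replicate 2 (0.0759), whereas those of days 5 and 7 were kept without any single array. All 3 MRC1 probes were called on each day, with changes between 1.03 and 1.37 on day 3, between 1.45 and 1.84 on day 5, and between 1.63 and 2.04 on day 7.

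MSR1, scavenger receptor A, takes up modified lipoproteins and other polyanions. In controls its brighter probe read -2.29, -4.39 and -3.93, and only replicate 1 was well above background. On day 3 it read -1.19, -1.17 and -0.84, on day 5 -1.24, -1.61 and -0.72, and on day 7 -1.29, -1.80 and -0.86, all above background. Control replicate 1 stood apart from the other controls but still lay below every day array. The changes were 2.47 on day 3 (SE 0.46, 5.53-fold, adjusted p = 0.00966), 2.34 on day 5 (adjusted p = 0.0253) and 2.22 on day 7 (adjusted p = 0.0312), from controls of which 2 were below background. With normexp background correction, which adds an offset of 50 to every signal, they were 0.71, 0.80 and 0.63, and day 7 did not pass (adjusted p = 0.118). Slide 1, which holds the high control, gave a change of 1.1 on day 3 against 3.22 and 3.09 on the other slides. The day 5 call was lost without control replicate 2 (adjusted p = 0.0764) or 3 (0.0609) or without day 5 replicate 1 (0.0785) or 3 (0.0917). That of day 7 was lost without control replicate 2 (adjusted p = 0.0942) or without day 7 replicate 1 (0.106), 2 (0.0541) or 3 (0.121). In limma on only the 6 arrays of the 2 groups compared, the calls of day 5 (adjusted p = 0.111) and day 7 (0.0923) were also lost. The second MSR1 probe was below background in all 3 controls (-4.98, -4.74 and -4.54) and above it on all 9 day arrays. A control that is below background gives only a bound, taken from the lowest signal that counted as above background on that array. By it the second probe was at least 2.77-fold higher on day 3, 2.34-fold on day 5 and 2.34-fold on day 7. Its measured changes passed in limma (adjusted p = 0.000957, 0.00389 and 0.00441), and the bounds themselves were not tested.

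CD86 is a costimulatory ligand on antigen-presenting cells that engages CD28 and CTLA4 on T cells. Its control levels of -4.33, -4.06 and -3.69 were near the detection limit, and replicate 3 alone was well above background. Day 3 gave -2.69, -2.64 and -2.53, day 5 gave -2.79, -2.59 and -1.81, and day 7 gave -2.47, -2.36 and -2.17. Every day array lay above every control, day 5 overlapped days 3 and 7, and day 5 replicate 3 was the highest of all arrays. CD86 rose 2.65-fold on day 3 (log2 change 1.41, SE 0.25, adjusted p = 0.00697), 3.10-fold on day 5 (adjusted p = 0.00592) and 3.24-fold on day 7 (adjusted p = 0.00555). These folds rest on controls of which 2 were not above background. After normexp correction the changes were 0.25, 0.64 and 0.48 and none passed (adjusted p = 0.531, 0.0891 and 0.252). In limma on only the 6 arrays of the 2 groups compared, the day 5 call was lost (adjusted p = 0.0621).

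MPEG1, or perforin-2, is a pore-forming protein that macrophages direct against ingested bacteria. All 5 MPEG1 probes were below background on all 3 controls. The brightest gave -4.36, -4.67 and -4.14 there, then -1.87, -2.51 and -3.20 on day 3, -1.63, -1.86 and -2.03 on day 5, and -1.51, -1.76 and -1.52 on day 7. Day 3 was the most spread of the days, with replicate 3 lowest on each of the 5 probes. Against the detection limit, MPEG1 was at least 2.04-fold higher on day 3, 3.29-fold on day 5 and 3.90-fold on day 7. The measured changes of the brightest probe passed in limma (adjusted p = 0.00318, 0.00140 and 0.000807), and these bounds were not tested. The measured change was 1.86 on day 3 with the brightest probe and 3.16 with the probe that gave the largest. This gap arose in controls, where the readings of the 5 probes on 1 array spread over 0.88 to 2.14, while on the 9 day arrays they spread over 0.30 to 0.58. The measured log2 changes are therefore not given as folds. With normexp correction MPEG1 changed by 0.32, 0.83 and 0.79 on the 3 days and was not called (adjusted p = 0.496, 0.0724 and 0.0894).

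**Figure D2:**
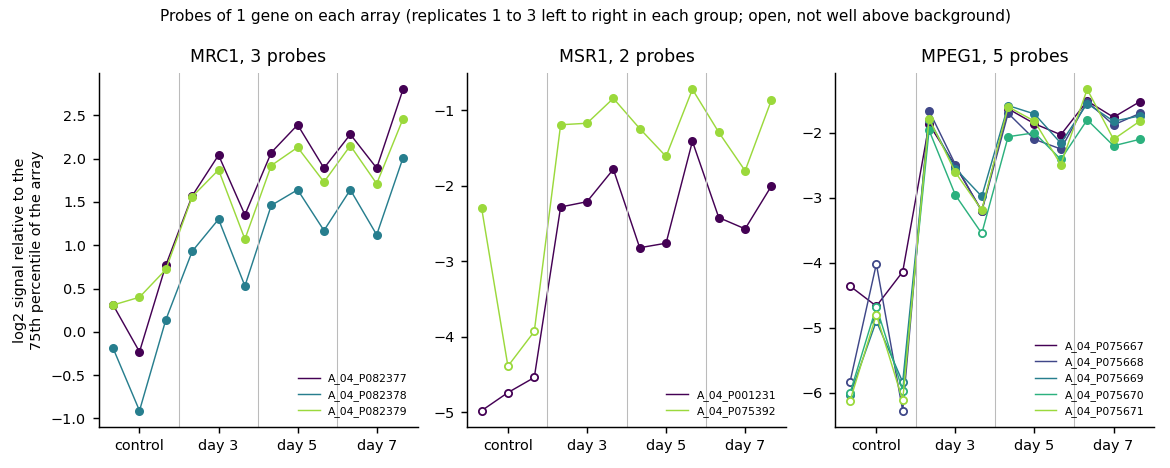
Level on the log2 scale, with the 75th percentile of each array at 0, for each probe of MRC1, MSR1 and MPEG1 on the 12 arrays, where a line joins the arrays of 1 probe and open marks were not well above background. The 5 nearly identical MPEG1 probes lie within 0.58 of each other on the day arrays and up to 2.14 apart on controls, where none was above background.

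CX3CR1, the receptor of the chemokine fractalkine, marks patrolling monocytes, many resident macrophages and microglia, and is also carried by some lymphocytes. Its control levels were -1.46, -1.83 and -1.62, all above background. On day 3 it read -3.14, -4.12 and -4.11, and only replicate 1 was above background. Levels of -2.65, -2.16 and -1.41 on day 5 overlapped the controls, and levels of -3.13, -2.88 and -3.75 on day 7 lay below them. CX3CR1 fell by 2.15 on the log2 scale on day 3 (SE 0.35, 4.44-fold lower, adjusted p = 0.00491), from measured values of which 2 were below background. The slide differences on day 3 were -1.68, -2.29 and -2.49. This call was kept without any single array and under every other alternative that tested the gene, but with normexp correction the change was -0.71.

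On day 5 the difference of CX3CR1 from control was -0.44 (95% confidence interval -1.21 to 0.33, adjusted p = 0.644), and the slides gave -1.19, -0.33 and 0.21. On day 7 it fell by 1.62 (3.07-fold lower, adjusted p = 0.0384), with slide differences of -1.67, -1.05 and -2.14. With the slide as a block the adjusted p was 0.0567, and it was 0.0797 without control replicate 2. The day 7 call was also lost without control replicate 1, day 3 replicate 2, day 5 replicate 2, or any 1 of the day 7 arrays (adjusted p between 0.0516 and 0.141). With normexp correction the day 7 change was -0.41 (adjusted p = 0.290). Between days, CX3CR1 was 1.72 higher on day 5 than on day 3 (95% confidence interval 0.95 to 2.49, adjusted p = 0.168), with slide differences of 0.49, 1.96 and 2.70. It was 1.18 lower on day 7 than on day 5 (-1.18, 95% confidence interval -1.95 to -0.41, adjusted p = 1). Neither pair of days overlapped, which 7.43% of named genes shared in the upward direction for day 5 against day 3 and 4.94% in the downward direction for day 7 against day 5. Neither difference passed over all probes, and no named gene did in either comparison (background 0%).

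**Figure D3:**
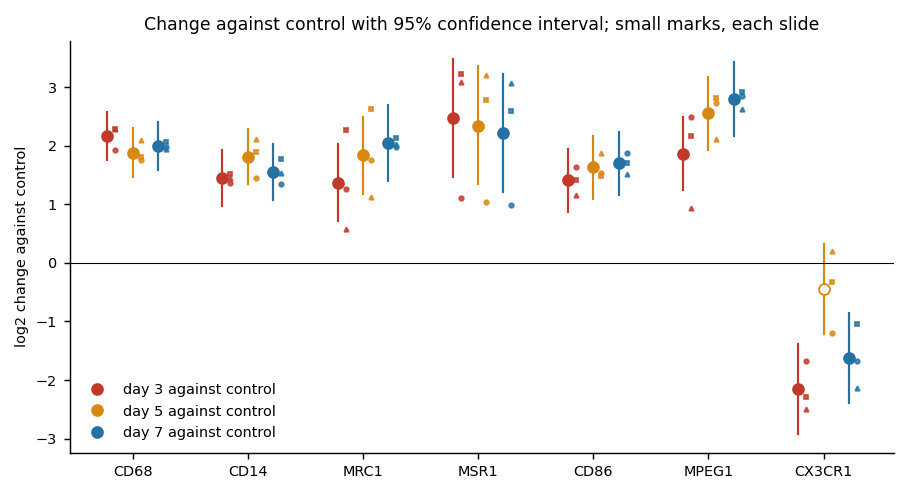
Log2 change of each gene against control on days 3, 5 and 7 (1 probe per gene), with 95% confidence intervals from the limma fit, small marks for each slide, and filled circles at adjusted p below 0.05. The intervals of 6 genes lie above 0 on every day, and that of CX3CR1 on day 5, from -1.21 to 0.33, spans 0.

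The order of the days could not be set for any of the 7 genes. By mean level CD68 ran control, day 5, day 7, day 3. MSR1 ran control, day 7, day 5, day 3. CD14 ran control, day 3, day 7, day 5. MRC1, CD86 and MPEG1 ran control, day 3, day 5, day 7, and CX3CR1 ran day 3, day 7, day 5, control. None of the 7 genes passed for day 5 against day 3, day 7 against day 5 or day 7 against day 3 in limma (backgrounds 0%, 0% and 0.109% of named genes in either direction). At an unadjusted p below 0.05 there were 2, 1 and 2 of them. MPEG1 was 0.93 higher on day 7 than on day 3 (95% confidence interval 0.31 to 1.55, adjusted p = 0.282), and MRC1 was 0.67 higher (0.02 to 1.32, adjusted p = 0.434). CD86 and the brightest of the MPEG1 probes lay wholly higher on day 7 than on day 3, as did 10.4% of named genes, but the other 4 MPEG1 probes overlapped between those days. For CD68 that interval ran from -0.59 to 0.25, for CD14 from -0.37 to 0.58, for CD86 from -0.25 to 0.83, and for MSR1 from -1.25 to 0.76. The 3 comparisons against control share their control arrays.

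Beside these 7, 17 of 40 listed macrophage and myeloid genes could be tested. Of these, 7 rose on day 3, 6 on day 5 and 5 on day 7, and none fell, with medians of 1.03, 1.15 and 0.93. Here and in the lists that follow, the shares of all named genes called higher were 4.83%, 1.92% and 1.96% on the 3 days, and lower 2.02%, 0.218% and 0.573%. The list counts include genes that passed the filter only through groups where they were high, and calls of such genes give no support. LCP1, an actin-bundling protein of blood cells, rose by 2.10, 1.91 and 1.70 on the 3 days. VSIG4, a complement receptor of resident macrophages, rose by 1.84, 1.70 and 1.55, and NCF4, a subunit of the phagocyte oxidase, by 1.03, 1.22 and 1.08. LGALS3, a galectin of phagocytes, rose on days 3 and 7 (1.62 and 1.39), with 1.07 on day 5 (adjusted p = 0.091). CYBB, the membrane subunit of that oxidase, rose on days 5 and 7 (1.58 and 1.62), with 0.95 on day 3 (adjusted p = 0.0555). ITGAM, an integrin of monocytes and neutrophils, read -0.09, -0.13 and 0.19, and LYVE1, carried by perivascular macrophages and lymphatic vessels, -0.44, 0.59 and 0.71, none of which passed.

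Of 30 tested genes of lysosomal proteins, the compartment in which CD68 resides, 7 rose on day 3, 4 on day 5 and 6 on day 7, and none fell. Their medians were 0.51, 0.41 and 0.34. CTSH, a lysosomal cysteine protease, rose by 1.46, 1.46 and 1.29, and GUSB, which removes glucuronic acid from glycosaminoglycans, by 1.37, 1.32 and 1.46. CTSB, another cysteine protease, rose by 1.23 and 1.12 on days 3 and 5, and LIPA, the acid lipase that frees cholesterol from its esters, by 1.34 on day 7. MANBA, a mannosidase, read -0.05, -0.01 and -0.02, so the lysosomal genes were not all raised.

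Of the partners of CD14, TLR4, its signalling receptor, rose on each day by 1.15, 1.46 and 1.39 (adjusted p = 0.00884, 0.00469 and 0.00697). LY96, the lipopolysaccharide-binding subunit, read 1.01, 1.35 and 1.55 and did not pass (adjusted p = 0.228, 0.180 and 0.102). Of the 11 tested genes of that list, 1 rose on day 3, 1 on day 5 and 2 on day 7. Beside TLR4, the gene called on day 7 was BPI, an endotoxin-binding protein, at 3.10, with 1 control above background. BPI passed the filter only through days 5 and 7, so its call gives no support for a rise. The adaptor MYD88 read 0.27, -0.14 and -0.39 without a call. None of 5 tested relatives of the scavenger and mannose receptors was called on any single day. Among them CD36, a receptor for oxidised lipoprotein, read 2.5, 2.41 and 3.16 (adjusted p = 0.0881, 0.169 and 0.0647), from controls of which 1 was above background.

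Of 7 tested ligands and growth factors, 2 rose on day 3 and none on days 5 or 7. CCL2, the chemokine that draws monocytes through CCR2, rose by 2.54 on day 3 (adjusted p = 0.00803) and read 1.02 and 0.69 on days 5 and 7 (adjusted p = 0.335 and 0.459). IL10, an inhibitory cytokine, was below background on controls and on days 5 and 7, and was at least 2.72-fold higher on day 3. Its adjusted p of 0.00163 in limma is that of the measured change, not of this bound. IL10 passed the filter only through day 3, so its call gives no support for a rise. CX3CL1, the ligand of CX3CR1, was above background on 3 arrays and was not tested. CSF1, its receptor CSF1R and the hemoglobin scavenger receptor CD163 could not be named on the array. Of the CD86 partners, CTLA4 read -0.21, -0.11 and 0.12 without a call, CD80 was above background on 3 arrays, and CD28 on 0. None of 5 tested costimulation and antigen presentation genes was called on any day.

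**Figure D4:**
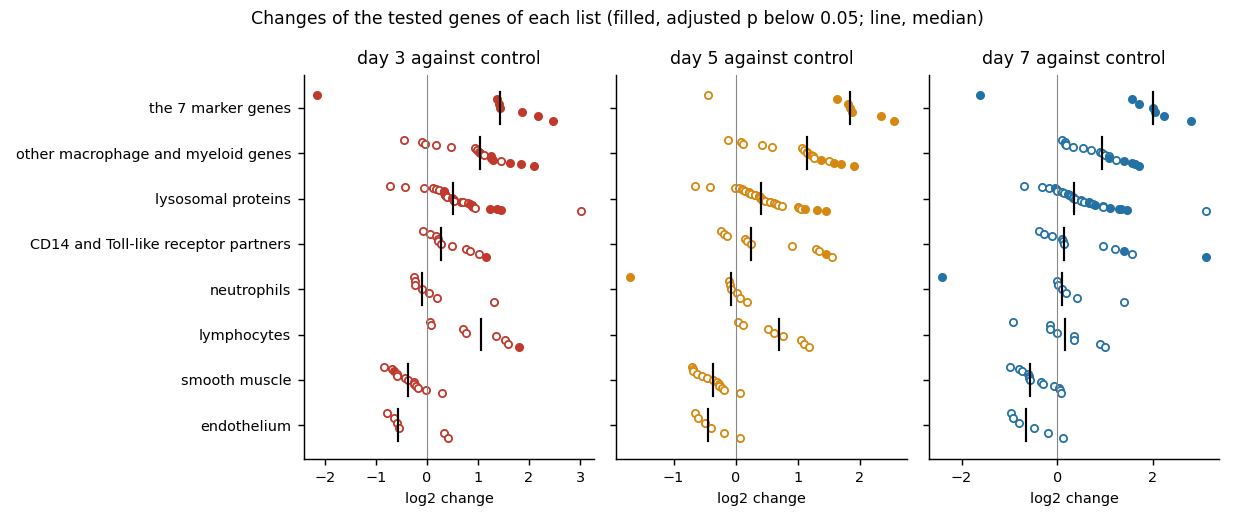
Log2 change against control (horizontal axis, 1 panel per day) of every tested gene of 8 lists, with filled marks at adjusted p below 0.05 and a line at the list's median. Medians were 1.44, 1.84 and 2.0 for the 7 marker genes, which were chosen with earlier results of these data known. They rest in part on control readings of MSR1, CD86 and MPEG1 near background, so the lists are not ranked. Other macrophage and myeloid genes had 1.03, 1.15 and 0.93, and lysosomal proteins 0.51, 0.41 and 0.34.

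Markers of other cells were read on the same arrays. Of 7 tested neutrophil genes none rose, and MMP9, a secreted gelatinase, fell by 1.71 on day 5 and by 2.41 on day 7. BPI, which rose on day 7, was counted with the CD14 partners and not here. The median changes of the 7 neutrophil genes were -0.10, -0.07 and 0.09 on the 3 days. The mean level of that list ran from -1.05 to -0.80 in controls and from -0.92 to -0.63 on day 3, and reached from -1.34 to -1.0 on day 5 and from -1.21 to -0.50 on day 7. Of 8 tested lymphocyte genes, 1, the B-cell receptor subunit CD79B, was called higher on day 3. CD79B was below background on all controls and passed the filter only through day 3, so its call gives no support for a rise. The mean level of the 8 genes lay between -3.08 and -2.71 in controls, between -2.44 and -1.31 on day 3, between -2.81 and -1.35 on day 5, and between -2.75 and -2.59 on day 7. None of 5 named dendritic cell genes was bright enough to be tested. Of the microglial list, SALL1, a transcription factor of microglia, was above background on 0 arrays. The defining microglial genes P2RY12, TMEM119 and GPR34 could not be named.

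The mean level of the smooth muscle genes was 5.34 to 5.66 in controls and 4.89 to 5.32 over the 9 day arrays, a difference that was not tested. Of the 13 genes, 1 was called lower on day 3 and none on days 5 or 7. Of 9 tested fibroblast and leptomeningeal genes, 3 rose and 3 fell on day 3. COL1A1, the main collagen of fibroblasts, rose by 1.56, 1.62 and 1.57, and PTGDS, a prostaglandin synthase of the meninges, fell by 1.59 on day 3. None of 6 tested endothelial genes was called on any single day. Of the neural and glial list 1 gene was tested, SYT1, without a call, and the glial genes GFAP, AQP4 and SLC1A2 were above background on 0 arrays. Of 2 tested red cell genes, neither was called. The part of these other cells in the changes of the 7 genes was not tested.

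For each of the 7 genes, the 3 named genes with the most similar levels were found by Pearson's r over the 12 arrays, from 7307 genes. The values share the arrays and the step from control to day, so r is a description. Nearest to CD68 were CRYBA4 (0.984, a crystallin whose probe is described as a lens clone), C1R (0.983, a complement protease described by the array as a mannan-binding lectin protease) and CTSH (0.981). CD14 was most like TGFBI (0.972), TLR4 (0.966) and TFEC (0.961). MRC1 was most like FGD6 (0.974), CYBB (0.934) and ECHDC1 (0.932), although the array describes the FGD6 probe as FYVE, RhoGEF and PH domain containing 4-like. MPEG1 was most like CYBB (0.955), TLR4 (0.947) and TFEC (0.944). MSR1 lay nearest to ABCC3 (0.980), VSIG4 (0.970) and FYB1 (0.946), and CD86 nearest to DNAJC18 (0.982), RNASE6 (0.958) and MLANA (0.947). The nearest genes to CX3CR1, CAP2 (0.937), SLC5A3 (0.923) and RADIL (0.887), had likewise their highest mean level in controls and their lowest on day 3.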

How the data were processed

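Scanner files were deposited by the authors, 1 per array; per the submitters' processing notes, Agilent Feature Extraction (version 9.5.1.1) produced them. Their processed signals are intensity values from which background was subtracted within the array, per the file headers. Flags, of the kind other, mark spots with 0 or 1 per the file headers. A value table of the authors, with intensity values whose median was 27.0 in every column, served as an alternative. The genome build is not given in the sources used here.

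Control and outlier spots were left out, log2 intensities were taken relative to each array's 75th percentile, and 26431 probes, those read well above background by every array of some group, were tested in 1 fit of 12 arrays with limma 3.58.1 (R 4.3.3 and version 1.17.8 of data.table; two-sided, Benjamini-Hochberg over all tested probes). The script was tested on simulated data. A gene is represented by its tested probe with the highest mean. Names came from the array and a RefSeq gene list (assembly mOryCun1.1): 1 gene was assigned to 22264 probes, several to 125 and none to 21234. No probe was saturated, and the number of arrays limits the precision.

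The 7 genes and the lists were chosen with earlier results of these data known. The text names the 7 genes, their partners, up to 4 called genes per list and the 3 most similar genes; NCF4, ITGAM, LYVE1, MANBA, MYD88, ACTA2, MYH11 and the absent markers were named after their values were seen. Replicate numbers are slides: over 18 same-numbered pairs, the correlation of deviations from group means was -0.15 to 0.39 (median 0.11, 10 above 0.1), beside a median of -0.04 and 2 above 0.1 over 36 differently numbered pairs. Arrays of 1 slide thus tended to deviate together, though not every pair did, and the slide is a block in an alternative. The probe sequence of CD14 and the calls of the microglial list are not reported here.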

Additional observations from a re-analysis of the deposited data

How the results depend on the processing

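Of 1141 results for the 7 genes under 24 alternatives, 12 of which leave out an array, 1103 kept their side of the threshold, 37 were no longer called and 1 became called. The 1103 include comparisons between days, none of which was called in the main fit. They are thus no measure of how firmly the calls held. Among called results, 0 reversed direction. Some results that were not called did change sign. CX3CR1 on day 5, lower than control in the main fit, read 0.07 with normexp background correction. CD68 and CD14 kept every call against control, and CX3CR1 kept its day 3 call in each alternative that tested it, although normexp moved it from -2.15 to -0.71. With normexp background correction, 3 of 7 genes were called on day 7 and 4 by the F test. With only probes above background on all 12 arrays, 3 genes (CD68, CD14 and MRC1) were tested, and all 3 were called on day 3, day 5, day 7, over the mean of the days and by the F test, fewer because fewer were tested. With array weights, 1 gene passed for day 5 against day 3, CX3CR1 (1.49, adjusted p = 0.0374), beside 0.168 without weights; the cause was not tested.

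Leaving out each array in turn called 6 to 7 genes on day 3, 5 to 6 on day 5, 5 to 7 on day 7, 6 to 7 over the mean of the days and by the F test, and 0 between days. With the slide as a replicate block, 6 genes kept their calls on each day, and CX3CR1 was lost on day 7 (-1.62, adjusted p = 0.0567). With all probes tested, MRC1 on day 3 (adjusted p = 0.0519), MSR1 on day 5 (0.0564) and day 7 (0.0733), and CX3CR1 on day 7 (0.0915) were lost. With scaling to the median, the median change of all tested probes on day 7 was 0.13, beside 0.06 in the main fit. With normexp it was 0.11 on day 5, beside 0.04. Signal near background limits MSR1, CD86 and MPEG1 in controls and CX3CR1 on day 3.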
